A study of Rattus norvegicus with 33 samples.

Results

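Soleus muscle of rats whose spinal cord had been cut was compared with soleus muscle of rats whose cord was intact, both after the gastrocnemius tendon had been divided. The comparison took 6 of the 33 arrays of the series, the 3 of the group called SCI and the 3 of the group called GA 7 days, chosen by their labels and not by any measured value. All animals were female Wistar rats and each array held RNA from the soleus of 1 animal. In the SCI animals the thoracic spinal cord was cut through at 9 weeks of age. They underwent the surgery for a stimulator, without receiving one, and a left gastrocnemius tenotomy 14 weeks later. Their muscles were taken 21 days after the tenotomy, 17 weeks after the transection. The GA animals, named for gastrocnemius ablation, had the left gastrocnemius cut from the Achilles tendon at 22 to 23 weeks of age, and their muscles were taken 7 days later. No animal of either group was stimulated. The groups therefore differed in transection, in the surgery for a stimulator, in age at collection, in time since tenotomy and in experiment. These cannot be told apart from these 6 arrays alone. Each experiment also had its own operated controls with an uncut gastrocnemius. Sham-SCI animals had the laminectomy at 9 weeks of age without transection, and no later leg operation is described for them, while Sham-GA animals had the leg operation without the tendon being cut. The contrast of Sham-SCI with Sham-GA 7 days, 3 arrays each, was used to show how far the experiments differed where neither the cord nor the tendon was cut.

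The soleus is a postural muscle built mainly of slow-twitch fibers, which carry slow isoforms of myosin, troponin and the calcium pump and depend on frequent, low-frequency firing of their motor neurons. That firing keeps cytosolic calcium raised, and the calcium-dependent phosphatase calcineurin and its NFAT transcription factors help to hold the slow program. Transection of the cord above the lumbar segments silences most of this input while the motor neuron still contacts the fiber, whereas division of the gastrocnemius tendon shifts the load of its synergist onto the soleus. In intact animals such overload is followed by growth, matrix remodeling and division of non-muscle cells.

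The labeled tissue carried the markers of slow skeletal muscle in all 6 arrays. Myh7, the slow myosin heavy chain, lay between 12.33 and 13.47 on the log2 scale. The mean over the 6 arrays of each of 11 markers measured, among them Tnnc1, Tnni1, Myl3, Ckm and Acta1, was at or above the 98.5th percentile of all genes tested. Fast-fiber markers were bright too in SCI, where the fast myosin heavy chain Myh1 averaged 13.34 and Myh7 12.56. In GA 7 days these means were 8.92 and 13.38. Over the series, array medians lay between 6.45 and 6.54, and the mean correlation of an array with the others of its group lay between 0.976 and 0.992. SCI replicate 2 differed from its group in several genes. It was the highest of the 3 SCI arrays for Chrna1, the alpha subunit of the muscle acetylcholine receptor, at 13.46 against 10.66 and 10.53, and the lowest for the fast-fiber gene Mybpc2, at 7.72 against 11.55 and 11.60. Among the controls, the Sham-SCI arrays spread widely in fast-fiber genes. The number of arrays, 3 per group, limits the precision of every value, and in whole muscle a loss of cells of a type and less RNA per cell cannot be told apart.

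Of 14453 genes tested, 1325 differed between SCI and GA 7 days at an adjusted p under 0.05 and at least 1.5-fold by limma, a background of 9.17% of all genes. Of these, 577 genes, 3.99% of those tested, were higher in SCI and 748, 5.18%, were lower. The 3 arrays of one group lay wholly above or below the 3 of the other for 5516 genes, 38.2% of those tested. The count depended on single arrays: it was 400 without SCI replicate 1, 438 without GA 7 days replicate 3, and 968 to 1191 without any one of the other 4. All 1325 genes kept their sign in each of these fits. Of the 107 called genes that were chosen to be named by a common rule, 41 were called without each array in turn, as were 18 of the 24 with the largest changes. The direction depended on scaling. The share of called genes that were higher in SCI was 43.5%, and it was 59.9%, 879 higher against 588 lower, when each array was centered on its median, which moved the median difference of all genes from 0.034 to 0.163. It was 50.9%, 721 against 695, after a further quantile normalization.

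Controls of the same 2 experiments differed about as often. Between Sham-SCI and Sham-GA 7 days 1388 genes, 9.6% of those tested, were called, 456 higher (3.16%) and 932 lower (6.45%) in Sham-SCI. Both contrasts called 543 genes in the same direction, which is 41% of the 1325 and 39.1% of the 1388. The overlap was larger among lower genes, 379 of 748 or 50.7%, than among higher genes, 164 of 577 or 28.4%, and only Inpp5j was called in opposite directions. Another 781 genes, 58.9% of the 1325, were called between SCI and GA 7 days alone, which does not by itself show that the contrasts differed for them. Across all genes the log2 differences of the contrasts, which share no array, had a Pearson correlation of 0.745, given as a description since genes are not independent. The count between the shams also changed with the day of the control: it was 84 against Sham-GA 1 day and 2 against Sham-GA 3 days, days chosen after the data were seen. Without Sham-GA 7 days replicate 3 the count was 437, without Sham-SCI replicate 2 it was 648 and without Sham-SCI replicate 3 it was 856.

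**Figure D1:**
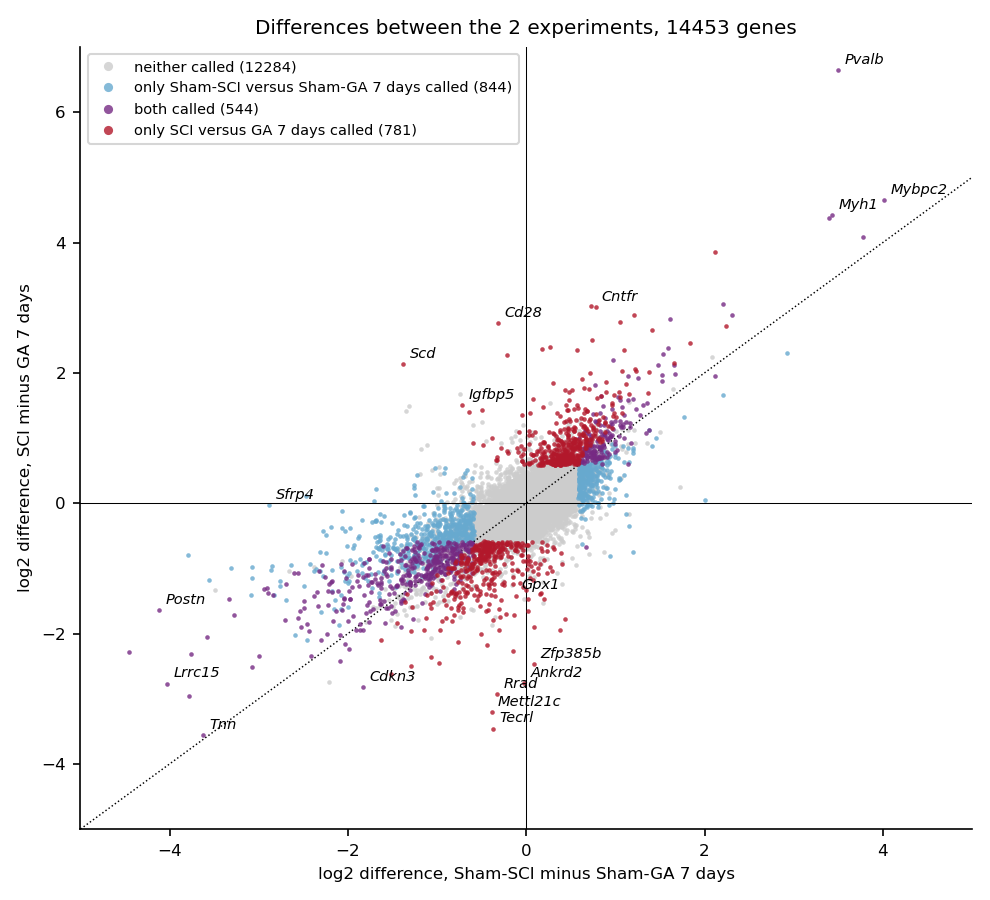
Each point is 1 of the 14453 genes tested, with the log2 difference between Sham-SCI and Sham-GA 7 days on the x axis and the log2 difference between SCI and GA 7 days on the y axis; colors give the contrasts that called the gene and the dotted line marks equal differences. Pvalb, Myh1 and Mybpc2 are high and Tnn is low on both axes, Sfrp4 is low on the x axis alone, and Ankrd2, Tecrl and Rrad are low and Cd28 is high on the y axis alone.

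The difference between the contrasts was tested directly, as SCI minus GA 7 days less Sham-SCI minus Sham-GA 7 days. It passed for 4 genes, 0.0277% of those tested, against 1155 at an unadjusted p under 0.05; its median standard error was 0.216 on the log2 scale, compared with 0.153 for each contrast alone. The genes were Cd28 and Igfbp5, which were higher, and Gpx1 and Zfp385b, which were lower. Cd28 was called without each of the 12 arrays in turn. All 4 were called without SCI replicate 2, Sham-SCI replicate 2, GA 7 days replicate 3 or Sham-GA 7 days replicate 2, Cd28 and Gpx1 without SCI replicate 3, and of the 4 only Cd28 in the other 7 fits. Against the shams taken at 1 day and 3 days, the double difference was also called for Cd28 and Gpx1 on both days, and for Igfbp5 and Zfp385b at 1 day but not at 3 days, with adjusted p of 0.0727 and 0.0617.

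Among the genes that were lower in transected muscle, those with the largest differences included several that are typical of slow or working fibers and that did not differ between the shams. Ankrd2, an ankyrin repeat protein of the sarcomere that is abundant in slow muscle and responds to stretch, was at 10.52, 10.73 and 10.44 in SCI and at 13.50, 13.28 and 13.18 in GA 7 days on the log2 scale. In the controls it was at 13.52, 12.80 and 13.39 in Sham-SCI and at 13.31, 13.44 and 13.03 in Sham-GA 7 days. Thus all 9 arrays without transection lay together, far above the 3 transected muscles. The fall was 6.76-fold (log2 difference -2.76, SE 0.39, limma adjusted p = 0.000182), the difference between the shams was -0.02, and the double difference was -2.74 with an adjusted p of 0.077.

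Casq2, the calsequestrin that stores calcium in the sarcoplasmic reticulum of slow fibers and heart, was at 9.81, 9.91 and 9.86 in SCI and at 11.95, 12.38 and 12.04 in GA 7 days. The shams lay between 11.35 and 12.13, so the transected muscles were again alone at the low end. The fall was 4.80-fold (limma adjusted p = 0.000461) and the shams differed by -0.14. Rcan1, which binds and restrains calcineurin and is itself induced through NFAT, was at 8.40, 9.19 and 8.69 in SCI and at or above 10.86 in GA 7 days. Its fall was 4.51-fold (limma adjusted p = 0.000257), with shams from 10.09 to 11.19. The double differences of Casq2 and Rcan1, -2.12 and -1.73, had adjusted p of 0.121 and 0.215.

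The promoters of these 3 genes, as RefSeq places them on the assembly GRCr8, are shown because the genes fell together and because MEF2 and NFAT are known regulators of slow-fiber genes. Each line gives the 250 bases before the annotated start, 5′ to 3′ on the gene's strand. Ankrd2 lies at chr1:250796169-250796418 on the plus strand, Casq2 at chr2:192214306-192214555 on the plus strand and Rcan1 at chr11:45118237-45118486 on the minus strand. Capitals mark matches on either strand to the MEF2 consensus, to the NFAT core GGAAA or to the serum response element CArG box.
Ankrd2: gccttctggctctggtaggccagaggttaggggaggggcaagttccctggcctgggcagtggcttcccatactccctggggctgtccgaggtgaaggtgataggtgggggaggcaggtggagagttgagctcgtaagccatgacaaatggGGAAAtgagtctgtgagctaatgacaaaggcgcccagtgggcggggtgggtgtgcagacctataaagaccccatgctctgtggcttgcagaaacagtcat
Casq2: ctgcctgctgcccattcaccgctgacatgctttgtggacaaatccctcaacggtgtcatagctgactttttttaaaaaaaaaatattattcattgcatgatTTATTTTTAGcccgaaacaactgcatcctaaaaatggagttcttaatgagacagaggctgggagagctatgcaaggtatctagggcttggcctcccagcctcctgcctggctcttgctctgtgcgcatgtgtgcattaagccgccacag
Rcan1: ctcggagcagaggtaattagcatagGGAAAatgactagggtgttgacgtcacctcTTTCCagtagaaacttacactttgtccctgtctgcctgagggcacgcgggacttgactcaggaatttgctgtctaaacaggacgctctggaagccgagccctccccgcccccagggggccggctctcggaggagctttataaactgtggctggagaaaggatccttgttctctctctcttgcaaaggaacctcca
The Ankrd2 stretch held 1 GGAAA and neither of the longer motifs, the Casq2 stretch held 1 MEF2 match and no GGAAA, and the Rcan1 stretch held 2 GGAAA. The letters GGAAA are common: with 50 further bases after the start, they were found in 60.1% of the 11923 tested genes that had a promoter in the table, and the MEF2 consensus in 2.49%. A match is a description of the letters and not a binding site. Among the 748 genes called lower, 606 had a promoter and 1.98% of these held a MEF2 match, and among the 577 called higher, 471 had one and 2.97% held a match.

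Rrad, Tecrl and Mettl21c also fell. Rrad, a small GTPase that restrains voltage-gated calcium channels, was at 7.33, 6.93 and 6.17 in SCI and at 9.64, 9.99 and 9.57 in GA 7 days, a 7.59-fold fall (limma adjusted p = 0.000257). Tecrl, an endoplasmic reticulum protein of heart and muscle whose loss disturbs calcium handling in the heart, was at 6.39, 6.71 and 5.99 in SCI and at 10.09, 9.43 and 9.95 in GA 7 days. This was the largest fall but one among the called genes, -3.46 on the log2 scale (limma adjusted p = 0.00457). Mettl21c, a protein lysine methyltransferase of skeletal muscle, was at 7.93, 9.06 and 7.92 in SCI and between 11.39 and 11.59 in GA 7 days, 9.25-fold lower. Its shams lay between 11.18 and 12.46, far from the transected arrays.

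Bdh1, the mitochondrial enzyme that interconverts ketone bodies, was at 6.30, 6.86 and 6.37 in SCI and at 8.25, 8.86 and 8.27 in GA 7 days, 3.87-fold lower (limma adjusted p = 0.00337). Hspb7, a small heat shock protein of heart and muscle, was at 10.88, 11.74 and 10.99 in SCI and between 12.88 and 12.95 in GA 7 days, 3.29-fold lower (limma adjusted p = 0.000413). The adjusted p of the difference between the shams was between 0.532 and 0.763 for Rrad, Tecrl, Mettl21c, Bdh1 and Hspb7. All of the lower genes named so far were called in every setting that kept these 2 groups, leaving out any 1 array included.

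The 2 lower genes whose double difference passed were Gpx1 and Zfp385b. Gpx1, the main glutathione peroxidase of the cytosol, was at 10.93, 11.03 and 11.12 in SCI and at 12.51, 12.54 and 12.28 in GA 7 days, while the shams lay between 12.06 and 12.56. The fall was 2.67-fold (SE 0.16 on the log2 scale, limma adjusted p = 2.46e-05) and the double difference was -1.30 (adjusted p = 0.0166). Zfp385b, a zinc finger protein, was at 5.31, 5.55 and 5.15 in SCI and at 8.00, 7.98 and 7.44 in GA 7 days. Its fall was 5.53-fold (limma adjusted p = 9.12e-05). The double difference was -2.56 (limma adjusted p = 0.0311, but 0.0724 with a t test on the gene's own variance). For neither gene did a transected array reach the lowest array of the other 3 groups.

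**Figure D2:**
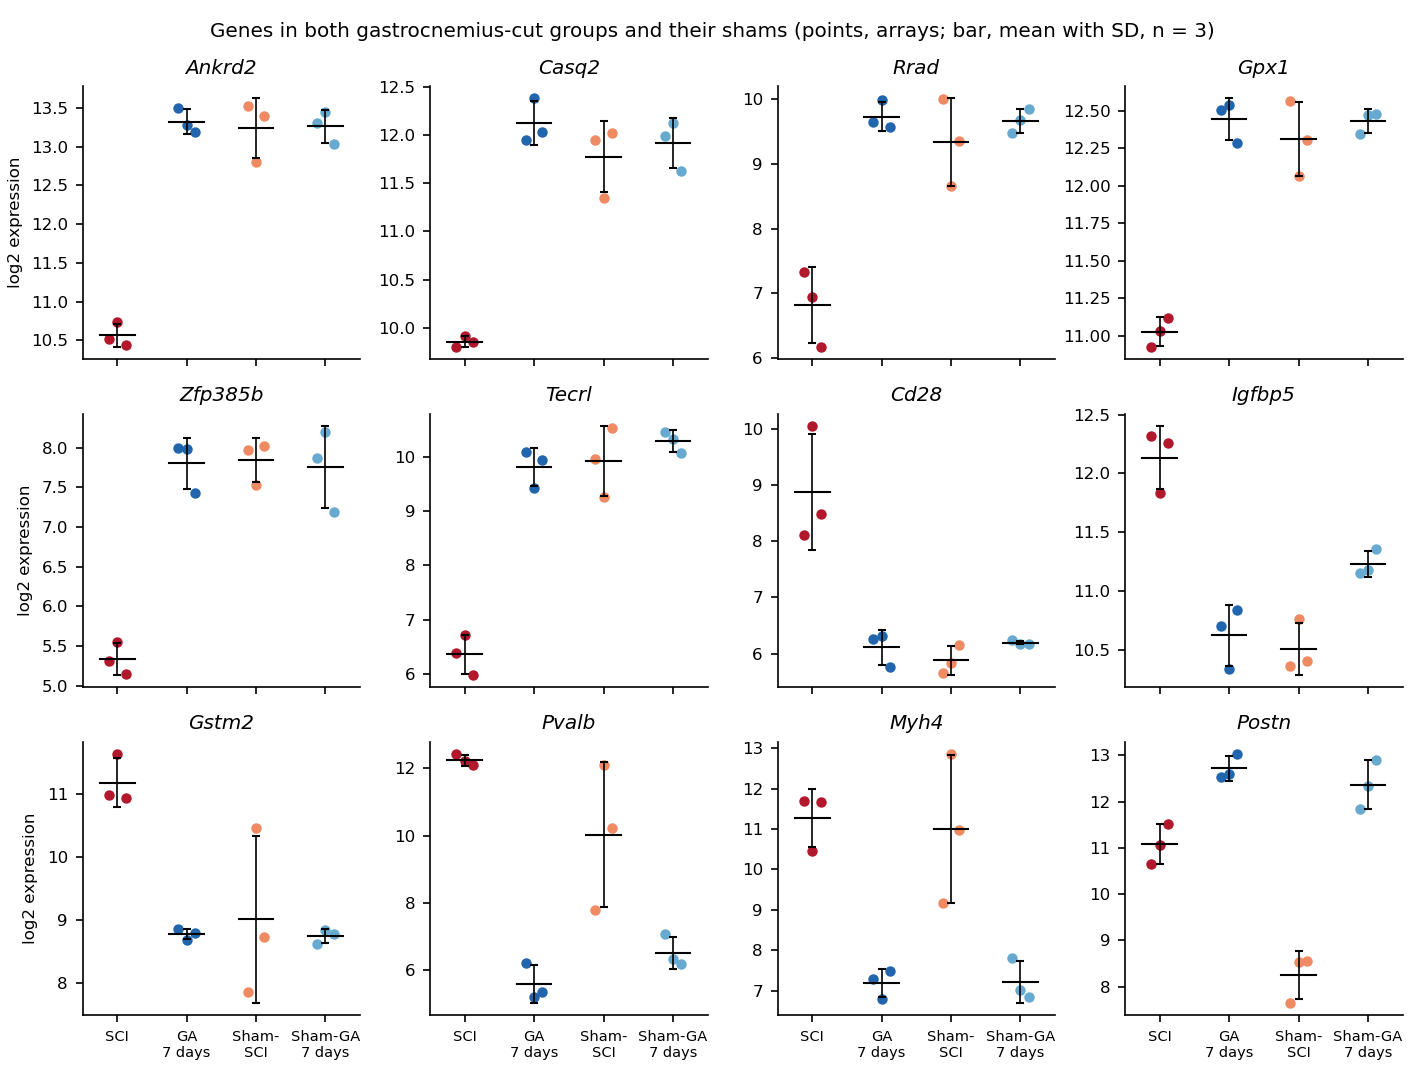
Each panel is 1 gene, with the log2 expression of every array on the y axis and the groups SCI, GA 7 days, Sham-SCI and Sham-GA 7 days on the x axis; points are arrays and bars the mean ± SD of 3. Ankrd2, Casq2, Rrad, Gpx1, Zfp385b and Tecrl are low in SCI alone and Cd28 and Igfbp5 high in SCI alone, while Pvalb and Myh4 are high in both SCI and some Sham-SCI arrays.

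The genes that were higher in transected muscle and not called between the shams were more varied in their roles. Cd28, a costimulatory receptor best known from T cells, was at 8.10, 10.04 and 8.48 in SCI and at 6.27, 6.31 and 5.76 in GA 7 days. The shams lay between 5.66 and 6.24, so each SCI array was above all others and replicate 2 was the highest. The rise was 6.78-fold (limma adjusted p = 3.27e-05) and the double difference was 3.08 (adjusted p = 0.00835). Of the 11 lymphocyte markers tested Cd28 was the only one called in either direction, where 9.17% of all genes were, and the median of the list was -0.34.

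Igfbp5, a secreted binding protein of the insulin-like growth factors, was at 12.32, 11.83 and 12.26 in SCI and at 10.70, 10.34 and 10.84 in GA 7 days. In the controls the order was the other way, 10.36, 10.76 and 10.40 in Sham-SCI against 11.15, 11.18 and 11.36 in Sham-GA 7 days, a difference of -0.72 with an adjusted p of 0.06. The rise was 2.85-fold (limma adjusted p = 0.00106) and the double difference was 2.23 (adjusted p = 0.0166). Other genes of the growth factor list went down: Igf1, Igf2 and Igfbp4 fell by 1.19, 1.29 and 1.34 on the log2 scale, and none of the 3 kept its call against GA 3 days, where Igf2 differed by 0.26. Igf2 and Igfbp4 averaged 9.51 and 9.46 in SCI, 8.51 and 8.13 in Sham-SCI, and 10.46 and 10.24 in Sham-GA 7 days. Of the 11 genes of the list 5 fell between the shams, where 6.45% of all genes did. The double difference of the list had a median of 0.625, with 10 of the 11 above 0.

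Cntfr, the receptor subunit that binds ciliary neurotrophic factor, was at 9.25, 10.22 and 9.40 in SCI and at 6.72, 6.56 and 6.56 in GA 7 days, 8.05-fold higher (limma adjusted p = 9.19e-05). Among the shams of these contrasts Sham-SCI replicate 2, at 8.31, was the nearest array, and the highest of all 21 arrays without transection was at 8.58. Gstm2, a glutathione transferase, was at 10.98, 11.62 and 10.93 in SCI and between 8.69 and 8.86 in GA 7 days, 5.26-fold higher (limma adjusted p = 0.000473), with Sham-SCI spread from 7.85 to 10.45. Scd, the desaturase that makes monounsaturated fatty acids, was at 10.49, 11.93 and 10.46 in SCI and at 8.99, 8.30 and 9.17 in GA 7 days. It was 4.39-fold higher (limma adjusted p = 0.0167), and without SCI replicate 2 or GA 7 days replicate 2 its adjusted p was up to 0.0804.

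In the Wnt pathway, which controls growth and cell fate, 2 of the 22 ligands, receptors and targets tested rose and 1 fell. Over all genes tested 9.17% were called in either direction, so a count this small does not set the list apart. Axin2, a target and feedback inhibitor of the pathway, was at 8.23, 8.00 and 8.01 in SCI and at 7.05, 6.99 and 6.98 in GA 7 days (2.11-fold, limma adjusted p = 0.000125). Gpc3, a cell-surface proteoglycan that binds Wnt ligands, was at 7.37, 7.92 and 8.84 in SCI and at 6.15, 7.05 and 6.76 in GA 7 days (2.63-fold, limma adjusted p = 0.0139, up to 0.082 without SCI replicate 3 or GA 7 days replicate 1). The receptor Fzd2 fell by 0.90.

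Slow-fiber genes as a list were lower in transected muscle. Of 15 tested, Ankrd2, Casq2, Myl2, Csrp3 and Tpm3 fell and Pln, the regulator of the slow calcium pump, rose 2.69-fold. Over all genes tested 5.18% fell and 3.99% rose. Pln averaged 7.46 in SCI, 7.60 in Sham-SCI, 7.14 in Sham-GA 7 days and 6.03 in GA 7 days, so GA 7 days was its low group. Of the 15 in the list, 13 had a negative difference. The median was -0.85, against 0.03 for all genes and 0.08 for the same list between the shams, where none was called. Leaving out 1 array gave between 2 and 5 lower calls, with 5 only without SCI replicate 2. The mean level of the list was 11.28, 11.58 and 11.12 in SCI and between 12.09 and 12.58 in the 9 arrays of GA 7 days and both shams. Myl2, the slow regulatory light chain, was at 11.26, 11.37 and 10.65 in SCI and at 12.58, 12.76 and 12.36 in GA 7 days, 2.77-fold lower (limma adjusted p = 0.0255, up to 0.0938 with 1 array left out).

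Core contractile genes of the slow fiber had smaller differences that missed the threshold. Myh7 differed by -0.82 (limma adjusted p = 0.136), Tnnc1, slow troponin C, by -1.06 (adjusted p = 0.0502), Tnni1, slow troponin I, by -0.82 (adjusted p = 0.0842) and Myh7b, a second slow myosin, by -1.20 (adjusted p = 0.0666). The arrays of SCI and GA 7 days did not overlap for any of these 4. Myl3, which was among the brightest genes, differed by -0.03.

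Fast-fiber genes had the largest rises of all, and they also differed between the shams. Of 13 tested, 9 rose, where 3.99% of all genes did, all 13 had a positive difference and the median was 2.73. Between the shams the same list had 9 rises, where 3.16% of all genes rose, and a median of 2.24. The median of the double difference was 0.47. The mean level of the list was 12.79, 12.03 and 12.77 in SCI and 9.55, 9.65 and 9.45 in GA 7 days. It was 9.97, 12.88 and 11.65 in Sham-SCI and 9.16, 9.48 and 8.82 in Sham-GA 7 days. The SCI muscles were therefore high, one Sham-SCI muscle was as high as they were, and another lay just above the range of the 7 day groups. The 3 arrays of Sham-GA 1 day lay from 8.73 to 9.17 and those of Sham-GA 3 days from 8.99 to 9.90, and 7 and 1 of the 13 were called against them.

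Pvalb, parvalbumin, the soluble calcium buffer of the fastest fibers, was at 12.42, 12.23 and 12.09 in SCI and at 6.23, 5.22 and 5.35 in GA 7 days, the largest difference of any gene at 6.65 on the log2 scale (limma adjusted p = 3.27e-05). In Sham-SCI it was at 7.78, 12.09 and 10.22, and the double difference was 3.15 (adjusted p = 0.42). Myh4, the IIb myosin heavy chain, was at 11.69, 10.45 and 11.68 in SCI and at 7.29, 6.80 and 7.49 in GA 7 days, 16.9-fold higher (limma adjusted p = 0.0023). In Sham-SCI it was at 9.17, 12.85 and 10.99, so that 1 control muscle held more Myh4 signal than any transected one, and the double difference was 0.30. Myh1, the IIx myosin heavy chain, was 21.4-fold higher (limma adjusted p = 0.00268) and differed between the shams by 3.43.

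Further large rises belonged to the same program. Mybpc2, fast myosin-binding protein C, rose by 4.65 with shams apart by 4.01, and Actn3, the fast-fiber alpha-actinin, rose by 4.37, each on the log2 scale. Myoz1, a Z-disc protein that binds calcineurin, rose 8.35-fold (limma adjusted p = 9.81e-05), also with a called difference between the shams. Aqp4, the water channel of fast fibers, was at 11.27, 6.71 and 11.17 in SCI and between 5.26 and 6.21 in GA 7 days. Its 14.5-fold rise was not called without SCI replicate 1, SCI replicate 3 or GA 7 days replicate 3 (adjusted p up to 0.082).

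Prkag3, the gamma subunit of AMP-activated kinase found in fast muscle, was at 10.85, 11.25 and 10.14 in SCI and at 8.00, 8.15 and 7.44 in GA 7 days. It was 7.39-fold higher (limma adjusted p = 0.000218), and the shams differed by 1.20 with an adjusted p of 0.051. Ucp3, a mitochondrial carrier of muscle, was at 11.21, 10.72 and 10.62 in SCI and at 9.00, 7.53 and 7.68 in GA 7 days (6.87-fold, limma adjusted p = 0.000604). Sh3rf2, a ubiquitin ligase scaffold, was at 11.44, 10.52 and 10.72 against 7.51, 8.83 and 7.23, 8.19-fold higher (limma adjusted p = 0.000489). For Ucp3 and Sh3rf2 the sham difference did not pass, with adjusted p of 0.11 and 0.306, and every SCI array was above every Sham-SCI array, whose highest values were 9.96 and 9.27.

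Genes of the extracellular matrix were lower in transected muscle, and more of them were lower in Sham-SCI than in Sham-GA 7 days. Of 26 tested, 12 fell and none rose between SCI and GA 7 days, where 5.18% of all genes fell, with a median of -1.17. Between the shams 23 fell, where 6.45% of all genes did, with a median of -2.35. The list mean was 9.84, 10.43 and 10.58 in SCI, 11.34, 11.33 and 11.65 in GA 7 days, 9.25, 8.98 and 9.15 in Sham-SCI and 10.96, 11.31 and 11.57 in Sham-GA 7 days. Transected muscle thus lay between Sham-SCI and the 7 day groups. The level also moved with the day of the operation: GA 1 day lay from 9.53 to 9.81, GA 3 days from 10.52 to 11.12, and Sham-GA 1 day from 9.50 to 9.86. Against GA 3 days 1 matrix gene rose and 1 fell, and the count of 12 became 0 without SCI replicate 1 or GA 7 days replicate 3, 4 without GA 7 days replicate 2 and 7 without SCI replicate 2.

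**Figure D3:**
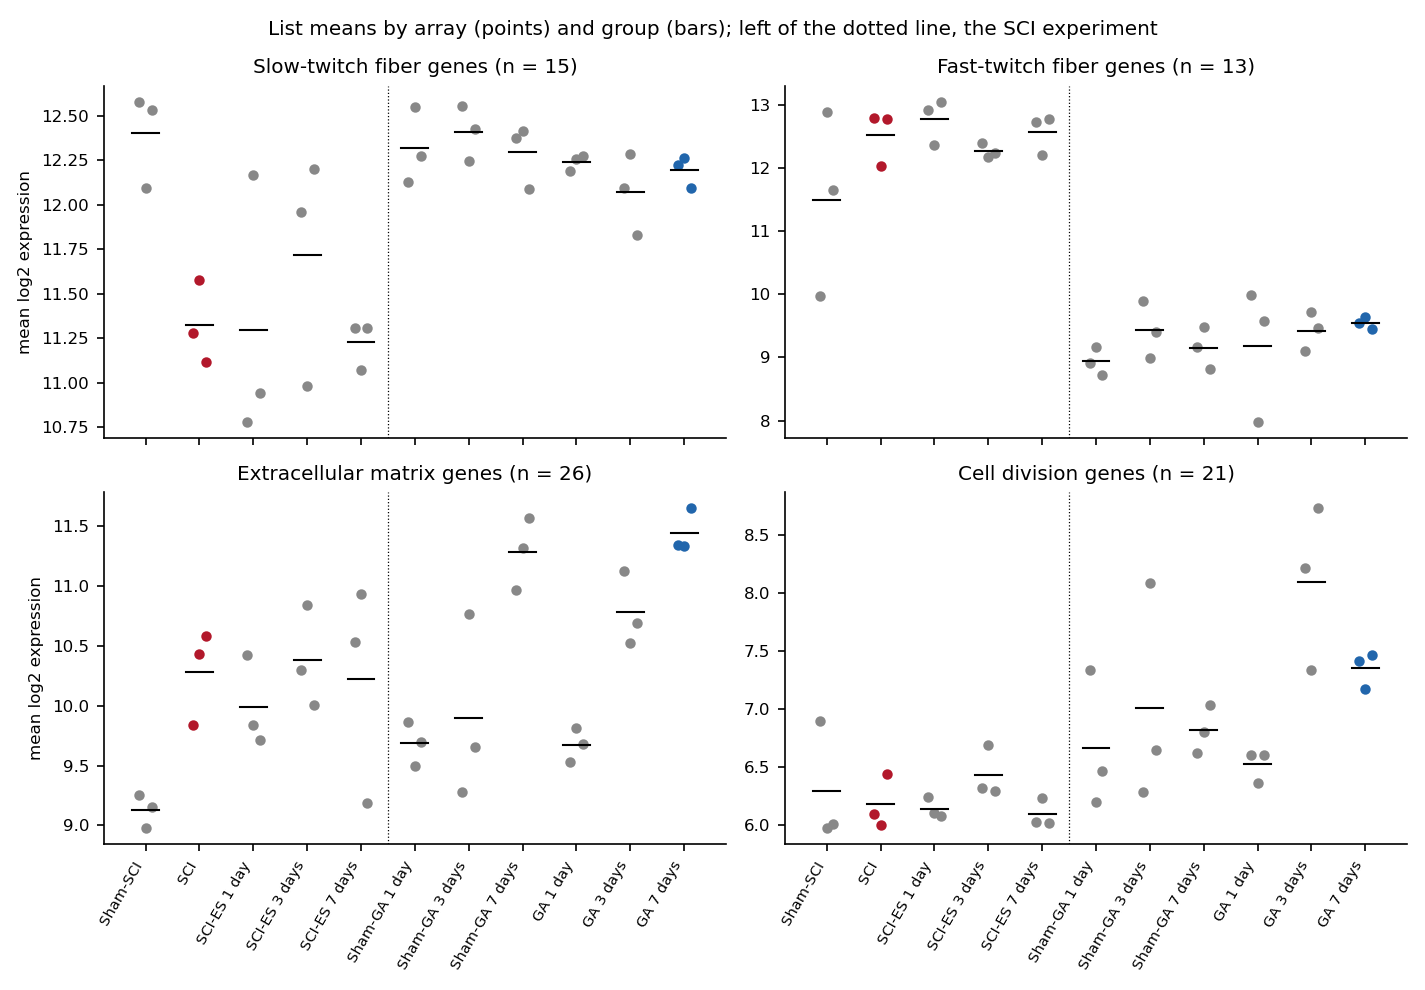
Mean log2 expression of the slow-fiber (15 genes), fast-fiber (13), extracellular matrix (26) and cell division (21) lists in each array, by group on the x axis; points are arrays. Slow-fiber levels are low in SCI, fast-fiber levels are high in SCI and 2 of the 3 Sham-SCI arrays, and matrix levels are highest in GA 7 days and Sham-GA 7 days. These fiber traits are not particular to unstimulated SCI. With 7 days of electrical stimulation after transection (SCI-ES 7 days), the slow-fiber median against GA 7 days was -1.08. The fast myosin gene Myh1 averaged 13.30 to 13.47 in the stimulated groups.

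Postn, periostin, a matrix protein of healing tissue, was at 10.66, 11.05 and 11.52 in SCI, at 12.54, 12.59 and 13.02 in GA 7 days, at 7.66, 8.54 and 8.56 in Sham-SCI and at 11.84, 12.34 and 12.91 in Sham-GA 7 days. SCI was 3.11-fold below GA 7 days (limma adjusted p = 0.0449), a call that failed when any single array was left out (adjusted p from 0.0524 to 0.177). The same SCI arrays were far above Sham-SCI. Sfrp4, a secreted Wnt inhibitor, was at 11.59, 12.18 and 11.47 in SCI and at 11.72, 11.62 and 11.98 in GA 7 days, a difference of -0.03 whose arrays overlapped (limma adjusted p = 0.982). It was between 8.09 and 9.51 in Sham-SCI and at or above 11.59 in Sham-GA 7 days. Sfrp2, of the same family, was at 9.30, 10.13 and 9.74 in SCI and at 10.02, 10.53 and 11.01 in GA 7 days, -0.80 apart (limma adjusted p = 0.341), and between 6.03 and 7.85 in Sham-SCI. Both were also low soon after a leg operation: the mean of Sfrp4 was 8.37 in GA 1 day and 9.43 in Sham-GA 1 day, and that of Sfrp2 was 8.18 and 8.31.

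Col12a1, a collagen of tendon and muscle fascia, was at 7.91, 9.66 and 9.82 in SCI and up to 11.95 in GA 7 days, whose arrays were all higher (5.08-fold lower, limma adjusted p = 0.00837, up to 0.0816 without SCI replicate 1 or GA 7 days replicate 3). Tnn, tenascin N, had the largest fall of the called genes, 11.8-fold, from 11.43, 9.93 and 11.66 in GA 7 days to 6.69, 7.49 and 8.16 in SCI (limma adjusted p = 0.0263). It differed between the shams by -3.63, and its call was lost without SCI replicate 1 or 2 or GA 7 days replicate 1 or 3 (adjusted p up to 0.119). C1qtnf3 fell 7.75-fold (limma adjusted p = 0.00447) and was 0.17 higher in SCI when GA 3 days was the comparator. Its means were 7.54 in SCI, 10.50 in GA 7 days, 5.74 in Sham-SCI and 9.52 in Sham-GA 7 days. Col12a1 averaged 8.10 in Sham-SCI and 10.51 in Sham-GA 7 days, so both genes were also lower in Sham-SCI than in Sham-GA 7 days.

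Markers of cells that lie between the fibers varied by cell type. The median difference was -0.58 for fibroblast markers and -1.05 for macrophage markers, but 0.002 for neutrophil and -0.018 for Schwann cell markers, and their part in the matrix result was not tested. Of 12 fibroblast markers 2 fell, Thy1 and Twist1, with a list mean of 8.59 to 9.02 in SCI and of 9.41 to 9.64 in GA 7 days. Thy1 was at 8.14, 8.12 and 9.63 in SCI and at 10.82, 10.84 and 11.15 in GA 7 days, a call lost without SCI replicate 1, SCI replicate 2 or GA 7 days replicate 3 (adjusted p up to 0.085). Of 17 macrophage markers none passed, although all 17 had a negative difference, with a list mean of 8.26 to 8.90 in SCI against 9.43 to 9.87 in GA 7 days. Between the shams 10 of the 12 fibroblast and 6 of the 17 macrophage markers fell, where 6.45% of all genes did. Their medians there were -1.42 and -1.43. For SCI against Sham-SCI the medians were 0.90 and 0.43, with none called. Of 12 pericyte and smooth muscle markers Tagln, Cspg4 and Acta2 fell between SCI and GA 7 days. Of the endothelial markers 1 of 11 fell, of the Schwann cell markers 1 of 8, and none of the 10 neutrophil or 9 adipocyte markers was called. Over all genes tested 5.18% fell and 9.17% were called in either direction, so 1 call in a list this small does not set it apart.

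Of 21 cell division genes tested 13 fell between SCI and GA 7 days, where 5.18% of all genes did, and none of the 21 was called between the shams. The list had a median of -1.32 against -0.66 between the shams. The list mean was 6.10, 6.01 and 6.44 in SCI and 7.42, 7.18 and 7.46 in GA 7 days, while Sham-SCI, at 6.90, 5.98 and 6.01, and Sham-GA 7 days, from 6.63 to 7.03, lay partly between. GA 3 days was higher still, from 7.34 to 8.73, and 19 of the 21 fell against it. Rrm2, the ribonucleotide reductase subunit of S phase, was at 5.84, 5.45 and 6.42 in SCI and at 8.37, 8.06 and 8.34 in GA 7 days (5.12-fold, limma adjusted p = 0.0214, up to 0.0817 with 1 array left out). Cdkn3, a phosphatase of the cell cycle that is not in this list, was at 5.45, 4.91 and 6.31 against 8.42, 8.37 and 8.35, 7.09-fold lower (limma adjusted p = 0.00433), and was called between the shams too. The 13 calls became 0 without SCI replicate 1 or GA 7 days replicate 3, and 4 without SCI replicate 2 or GA 7 days replicate 1.

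In the lists of energy metabolism most calls were rises, to be read against the 3.99% of all genes tested that rose. Of 22 glycolysis and glycogen genes 10 rose and 1, the hexokinase Hk1, fell, with a median of 0.63 and of 0.70 between the shams. Phkg1, the catalytic subunit of the kinase that activates glycogen phosphorylase, was at 10.01, 8.40 and 9.78 in SCI and at 7.03, 6.86 and 5.82 in GA 7 days (7.10-fold, limma adjusted p = 0.00177). Of 15 pyruvate dehydrogenase and citric acid cycle genes 5 rose, with a median of 0.51 and of 0.71 between the shams, among them Idh3a by 0.96 and Sucla2 by 1.20. Of 70 subunits of oxidative phosphorylation 4 rose, a share near that of all genes, and 65 had a positive difference, with a median of 0.36. Cox6a1, the widely expressed isoform of a cytochrome oxidase subunit, was the 1 that fell, by 1.04. Between the shams 6 of the 70 rose, where 3.16% of all genes did, and 1 fell. There 68 had a positive difference, with a median of 0.49. Against Sham-SCI, SCI had a median of -0.25, with 68 of the 70 below 0. Between SCI and GA 7 days, leaving out SCI replicate 2 raised the counts of rises to 15, 10 and 15 for glycolysis, the cycle and oxidative phosphorylation. Without any 1 of the other 5 arrays they were 4 to 6, 0 to 4 and 2 to 4.

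Ppargc1a, which encodes the coactivator PGC-1alpha of mitochondrial genes, was at 9.63, 9.19 and 9.32 in SCI and at 8.21, 8.12 and 7.47 in GA 7 days, 2.73-fold higher (limma adjusted p = 0.0167, up to 0.101 without SCI replicate 1 or GA 7 days replicate 3). Sham-SCI was between 8.92 and 9.74 and Sham-GA 7 days between 8.53 and 9.06, so GA 7 days was the low group. Among 26 genes of fatty acid uptake and oxidation Ucp3 and Etfdh rose, and Bdh1 was the only ketone body gene of 3 to be called. The median of the 26 was 0.48, and it was 0.44 between the shams, where none was called. Of 23 glutathione genes Gstm2 and Gstm5 rose and Gpx1, Gpx7, Gpx8 and Gss fell. The share called over all genes tested, to be set beside these lists, was 9.17%.

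Some genes for protein folding fell in SCI and none rose, where 5.18% of all genes fell. Of 29 cytosolic chaperones Hspb7, Hspb1, Hsp90aa1 and Dnajb4 fell, 23 had a negative difference and the median was -0.26, whereas 3 rose between the shams with a median of 0.33. Hsp90aa1, the inducible cytosolic HSP90, was at 9.13, 9.86 and 9.50 in SCI and between 10.36 and 10.56 in GA 7 days, 1.95-fold lower (limma adjusted p = 0.00535). Hspb1, a small heat shock protein that protects the cytoskeleton, was at 10.82, 11.46 and 10.80 against 11.93, 12.27 and 11.82, 1.97-fold lower (limma adjusted p = 0.00337). Of 18 folding genes of the endoplasmic reticulum Pdia4, Pdia6, Manf and P4hb fell, and none of them did without SCI replicate 1 or GA 7 days replicate 3. Among 33 proteasome subunits only Psmd5 fell, and none of 15 ribosome biogenesis genes was called.

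**Figure D4:**
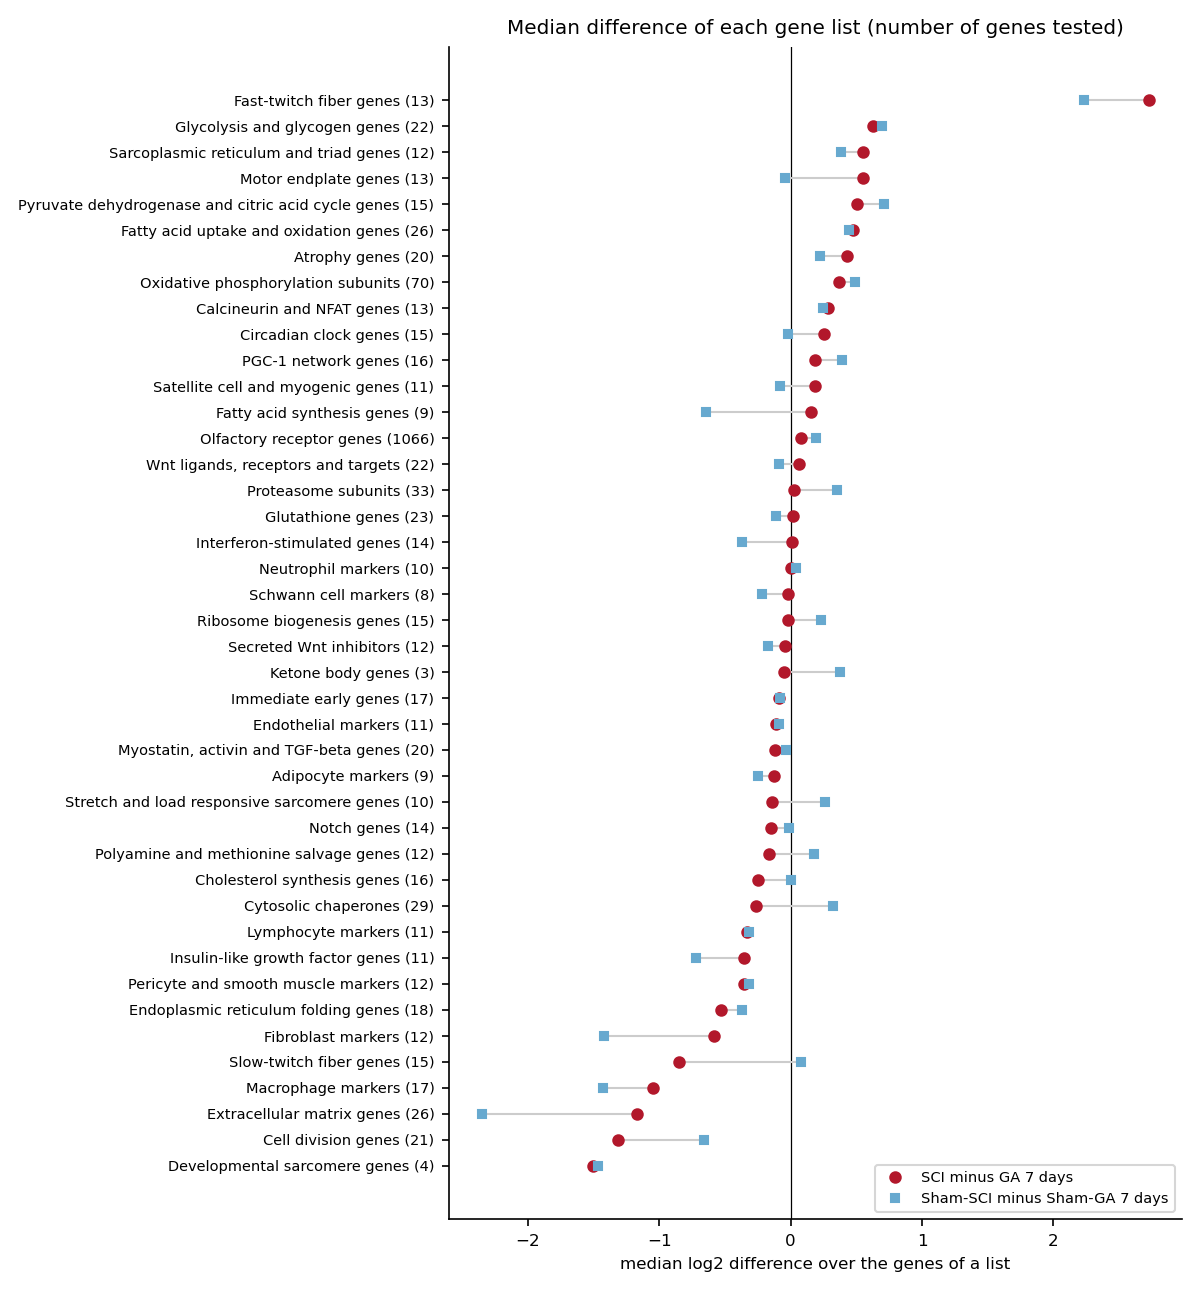
Median log2 difference of each gene list, for SCI minus GA 7 days and for Sham-SCI minus Sham-GA 7 days, on a common x axis. Fast-fiber genes are to the right of 0 in both contrasts and matrix genes to the left in both, while slow-fiber genes are to the left of 0, at -0.85, in the first contrast only and at 0.08 in the second.

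Genes that respond to loss of nerve activity gave a mixed picture. Of 20 atrophy genes Trim63, Hdac4, Fbxo30, Klf15 and Foxo1 rose, where 3.99% of all genes did, none fell and the median was 0.43. Trim63, the muscle ubiquitin ligase MuRF1, was at 10.68, 10.51 and 10.38 in SCI and at 9.22, 9.46 and 8.73 in GA 7 days (2.61-fold, limma adjusted p = 0.00985). It lay between 10.19 and 10.34 in Sham-SCI. The call of Trim63 was lost without SCI replicate 1 or GA 7 days replicate 3 (adjusted p up to 0.0656), and the 5 rises of the list became 0 without GA 7 days replicate 3 and 1 or 2 without SCI replicate 1, SCI replicate 2, GA 7 days replicate 1 or GA 7 days replicate 2.

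Of 13 motor endplate genes Chrnb1 and Rapsn rose, where 3.99% of all genes did. None was called without GA 7 days replicate 3, and without SCI replicate 2 the list held 1 rise and 2 falls. Rapsn, which clusters the acetylcholine receptor, also lost its call without SCI replicate 1, SCI replicate 2 or GA 7 days replicate 1. Chrnb1, the beta subunit of the acetylcholine receptor, was at 9.19, 10.70 and 9.43 in SCI and at 8.87, 8.75 and 8.39 in GA 7 days, and its adjusted p was up to 0.165 without SCI replicate 2, GA 7 days replicate 2 or GA 7 days replicate 3. Chrna1 overlapped between the groups (limma adjusted p = 0.178), and its difference was -1.32 when SCI-ES 7 days took the place of SCI. Myod1, a myogenic transcription factor, was at 8.57, 10.32 and 8.77 in SCI and at 6.97, 7.24 and 6.42 in GA 7 days (5.08-fold, limma adjusted p = 0.00952, up to 0.0567 without SCI replicate 2 or GA 7 days replicate 3).

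Within the calcineurin and NFAT list of 13 genes, the phosphatase subunits Ppp3ca, Ppp3cb and Ppp3cc and the factor Nfatc3 rose while Rcan1 and Nfatc4 fell. Over all genes tested 3.99% rose and 5.18% fell. Ppp3cb was at 10.68, 10.58 and 10.67 in SCI and at 9.83, 9.83 and 9.70 in GA 7 days (1.81-fold, limma adjusted p = 0.00306), with shams apart by 0.43. Nfatc3 was 1.68-fold higher (limma adjusted p = 0.00163) and the shams differed by 0.43. Rcan1 was the largest change of the list by a wide margin. Among 12 genes of the sarcoplasmic reticulum and triad, Ryr1, the calcium release channel, Jph1, Stac3, Jsrp1 and Trdn rose and Ryr3 fell, to be set beside the same shares of all genes. Ryr1 was at 12.91, 12.72 and 12.90 in SCI and at 12.07, 12.06 and 11.50 in GA 7 days. The 5 rises became 2 without SCI replicate 1 or GA 7 days replicate 3. Stac3 lost its call whichever of the 6 arrays was left out, and Ryr3 without SCI replicate 1, SCI replicate 3, GA 7 days replicate 1 or GA 7 days replicate 3, whereas Ryr1 and Jph1 were called each time. Between the shams 2 of the 12 rose and 1 fell, where 3.16% and 6.45% of all genes did. The list median was 0.38 there and 0.55 between SCI and GA 7 days. Jph1 averaged 10.37 in SCI, 9.15 in GA 7 days, 10.28 in Sham-SCI and 9.19 in Sham-GA 7 days. Stac3 averaged 11.59 in SCI and 11.51 in Sham-SCI, and Ryr1 differed by 0.365 between the shams.

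In each of the remaining lists at most 6 members were called, and the share called over all genes tested was 9.17%. Of 10 stretch and load responsive genes Ankrd23 rose and Lmcd1 and Pdlim5 fell, and of 4 developmental sarcomere genes Tnnt2 fell. Of 20 genes of the myostatin, activin and TGF-beta group Fst, Acvr2b and Bmp4 rose and Tgfb1, Ltbp2 and Fstl1 fell. The 3 calls of the stretch and load list became 1 or 2 with 1 array left out, and the 6 of the myostatin list 1 to 4. Among 12 secreted Wnt inhibitors only Dkk3 fell, among 14 Notch genes only the ligand Dll1 rose, and in the satellite cell list Myod1 and Met rose of 11. Of 15 clock genes Per1, Tef and Nr1d2 rose and Cry2 fell, and of 17 immediate early genes Jun rose and Atf3 and Nr4a2 fell. The 4 clock calls became 1 to 3 with 1 array left out. Of 16 cholesterol synthesis genes Fdft1 rose and Sqle and Cyp51 fell, but Fdft1 and Sqle lost their calls whichever of the 6 arrays was left out, and Cyp51 without SCI replicate 1, SCI replicate 2 or GA 7 days replicate 3. Of 9 fatty acid synthesis genes Scd and Acacb rose, of 16 PGC-1 network genes Ppargc1a and Tfb2m rose, and of 12 polyamine and methionine salvage genes Srm fell. None of 14 interferon-stimulated genes was called, and of 1066 olfactory receptor genes, which muscle is not known to use, none was called and the median was 0.08.

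To see which differences set transected muscle apart from all other arrays and not only from GA 7 days, the SCI arrays were set against the 21 arrays of animals without transection, which were 9 GA, 9 Sham-GA and 3 Sham-SCI. Of the 1325 genes 634, or 47.8%, had all 3 SCI arrays beyond all 9 GA arrays, which was true of 13.6% of all genes tested. Against all 21 it was 117 genes, 8.83% of the 1325 and 1.68% of all genes, with 69 higher, where 0.879% of all genes were, and 48 lower, where 0.803% were. Of the 117, 6 were also called between Sham-SCI and Sham-GA 7 days. These counts use the SCI and GA 7 days arrays again and were chosen after the data were seen, so they describe the same arrays and are no second test.

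The genes with the widest gaps between the SCI arrays and the nearest of the 21 others were Ankrd2 (2.07 on the log2 scale), Cd28 (1.71), Mettl21c (1.45), Casq2 (1.44), Bdh1 (1.38), Rrad (1.33) and Zfp385b (1.26). The genes named in the rest of this paragraph were picked after their values were seen. Of the 48 lower genes 39 had a promoter in the table, and 5 of these, Casq2, Fhl2, Hspb7, Tecrl and Cenpm, or 12.8%, held a MEF2 match. None of the 62 promoters of the 69 higher genes did, and the share over all genes was 2.49%. MEF2 was 1 of several motifs counted. The NFAT core GGAAA was in 48.7% of the lower and 66.1% of the higher promoters, against 60.1% over all genes. The part of these motifs in the changes was not tested. Prox1, a transcription factor of slow fibers, was between 7.00 and 7.32 in SCI and between 7.79 and 9.21 in the 21 arrays, and Tpm3, slow tropomyosin, was between 11.57 and 11.79 against 12.37 to 13.08. Fhl2, a LIM protein of heart and muscle, was between 7.75 and 8.27 against 8.51 to 10.31. Of the higher genes Cyp27a1, a sterol hydroxylase, was between 8.71 and 9.22 against 6.14 to 8.22, Sult1a1, a sulfotransferase, between 9.51 and 9.94 against 6.06 to 9.00, and Gstm5, Gstm7, Fmo1 and Adh1c were also above all 21. Prlr, the prolactin receptor, was between 5.34 and 5.96 against 3.89 to 4.78.

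All 12 arrays of transected animals, the 9 that received electrical stimulation included, lay beyond all 21 others for 16 genes, 0.111% of those tested, of which 14 were among the 1325. The lower ones were Ankrd2, Zfp385b, Bdh1, Homer2, Gpx1, Ak4 and Efcab14, and the higher ones were Cd28, Igfbp5, Tmod1, Cyp2j10, Zcchc24, Zfp958 and Dpp8. Slc4a7 and Zhx3 completed the 16 without reaching 1.5-fold. Homer2, a scaffold protein that links calcium channels and receptors, was between 8.44 and 8.63 in SCI and between 8.21 and 9.54 in the stimulated muscles, and between 9.55 and 10.53 in the 21 others. Its fall against GA 7 days was 3.15-fold (limma adjusted p = 0.000489), with shams apart by 0.02 and a double difference of -1.68 (adjusted p = 0.11). Ak4, a mitochondrial adenylate kinase, was at most 6.91 in the 12 transected muscles and at least 7.17 in the others, and Tmod1, which caps the thin filament, was at least 11.27 against at most 11.25.

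**Figure D5:**
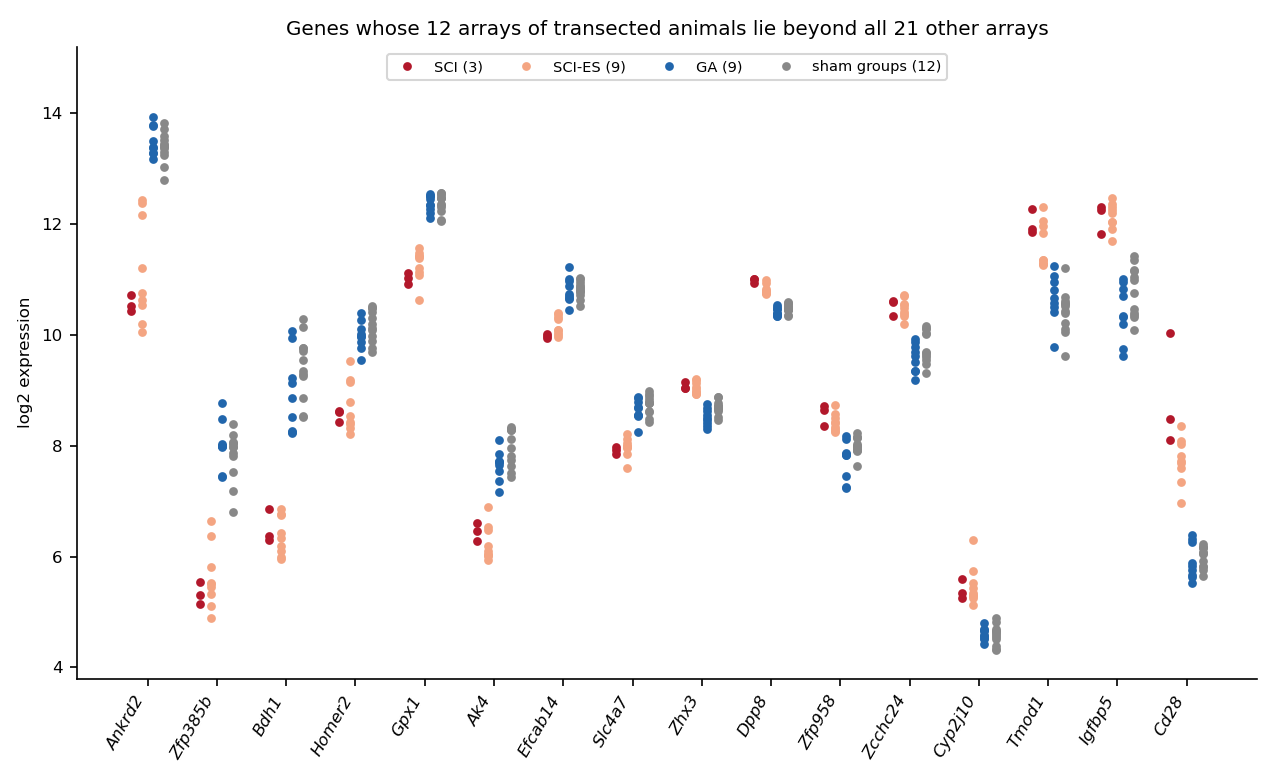
Log2 expression of the 16 genes in every array of the series, with the genes on the x axis. Within each gene, colors give SCI (3 arrays), SCI with electrical stimulation (9), GA (9) and the shams (12). For every gene the 12 transected arrays lie on one side of the 21 others, with the widest gap for Bdh1, 1.37, and the narrowest for Homer2 and Tmod1, 0.012 and 0.022.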

How the data were processed

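Soleus RNA of 33 rats in 11 groups of 3 was measured on Affymetrix rat arrays, with an array for each animal, and groups were taken from the sample titles. The authors subtracted background, quantile normalized and median polished the signals with the oligo package and deposited log2 values per transcript cluster, with versions not given in the sources used here. Quantile normalization assumes that arrays share 1 distribution. The table held 29214 rows, of which 15310 had 1 gene symbol, 323 several and 13581 none, and only the first kind was named, for 14506 genes. Where a gene had more than 1 row, as 527 did, the row with the highest mean was used. Genes with a mean log2 value of at least 3, 14453 in all, were tested.

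limma 3.58.1 in R 4.3.3 fitted 11 group means to all 33 arrays, and p-values were adjusted by the Benjamini-Hochberg method over the 14453 genes. Called genes had an adjusted p under 0.05 and a difference of at least 1.5-fold, which is 0.585 on the log2 scale. Whether animals shared a cage, day or scan was not analysed here. Promoters came from RefSeq, assembly GRCr8. Python 3.11.15 served for tables (numpy 2.4.6, pandas 2.3.3) and plots (matplotlib 3.10.9), and the fits were tested on simulated data first.

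The comparison, the 41 gene lists and the rule for named genes were chosen with earlier results of these data known. Among called genes whose arrays did not overlap, the text names at most 12 per direction by size of change, and also up to 3 called members per list, the ends of a list and genes that the study names; other names were chosen after their values were seen. Alternatives changed the filter, scaling, fold, arrays fitted, prior, rows per gene, test, block and comparator, and left out each array. The other test was a t test on each gene's own variance in the same fit. The Sham-GA comparators, the counts against all 21 arrays and the list counts under alternatives were added after the data were seen.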

Additional observations from a re-analysis of the deposited data

Results flagged for a closer look

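The change between the experiments' shams and the change between their tenotomized groups differed for 4 genes when the difference itself was tested. Cd28 was higher by 3.08 on the log2 scale beyond the sham difference and Igfbp5 by 2.23, whereas Gpx1 was lower, at -1.30, and Zfp385b was lower, at -2.56. All 3 SCI arrays lay beyond the 9 arrays of GA 7 days, Sham-SCI and Sham-GA 7 days for each of the 4. Since neither sham matches its tenotomized group in every operation, the part of the tenotomy in these values was not tested.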

How the results depend on the processing

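Between SCI and GA 7 days the count of called genes was 1325 and stayed between 1102 and 1950 under the filters, scalings, choices of arrays fitted, rows per gene, priors, block and adjusted tests tried and with no fold minimum. The exceptions were 555 at a 2-fold minimum and 1992 with a t test on each gene's own variance at an unadjusted p. Leaving out 1 array gave 400 to 1191. With GA 3 days, the mean of the GA days or SCI-ES 7 days the counts were 1657, 1774 and 1464. Between the shams the count was 2226 with no fold minimum, 602 at 2-fold, 437 to 1661 with 1 array left out (437, 648 and 856 without Sham-GA 7 days replicate 3 and Sham-SCI replicates 2 and 3), 84 against Sham-GA 1 day, 2 against Sham-GA 3 days and 39 against the mean of the 3 days. There the share of calls that were higher went from 32.9% to 59.8% under median centering, which moved the median of all genes from 0.061 to 0.214. The double difference gave 43 genes from only the 12 arrays. With the t test on each gene's own variance it gave 498 at an unadjusted p and 4 at an adjusted p, but without Zfp385b (0.0724). It gave 72 and 21 with Sham-GA 1 day or the mean of the Sham-GA days, and 1 to 8 with 1 array left out. The causes were not tested.

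Of the 130 genes recomputed under the alternatives, which are not all genes named, 7 changed sign in their log2 difference. Sfrp4, at -0.03, was 0.021 after repeated quantile normalization, 0.10 after median centering, -0.24 to 0.11 with 1 array left out, 1.32 against GA 3 days and 1.56 against the mean of the GA days. Against GA 3 days C1qtnf3 was 0.17, Cry2 0.11, Igf2 0.26 and Postn 0.11, and against the mean of the days Igf2 was 0.060, Postn 0.095 and Sfrp2 0.089. Chrna1 was -1.32 with SCI-ES 7 days. In the other combinations of gene and setting 2206 kept sign and call, 337 lost the call and 40 gained it.

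Replicate numbers recur across groups, but same-numbered SCI and GA 7 days arrays deviated together with correlations of 0.252, -0.026 and 0.242, and replicate 2 did not correlate best with its own number. The numbers were therefore not treated as pairs. With the replicate block the counts were 1203, 1272 and 5 for the 2 contrasts and the double difference. Dim rows near the array background limit small differences.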
